A study of Homo sapiens with 9 samples.

Results

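The genes described here are the semaphorins, their plexin and neuropilin receptors and the collapsin response mediator proteins (CRMPs), followed in pancreatic cancer cells whose STOML2 had been silenced. They were chosen by gene symbol: every row of the expression table with 1 symbol that begins with SEMA or PLXN, together with NRP1, NRP2, CRMP1 and DPYSL2 to DPYSL5. This gave 35 genes of 21448 rows, namely 19 semaphorins, 9 plexins, 2 neuropilins and 5 CRMPs, each with 1 row. SEMA3B was not analysed here. The set was chosen with earlier results of these data known. The cells were AsPC-1, an established human pancreatic adenocarcinoma line. Control cells carried the blank pBAsi-hU6 NEO plasmid. The sh1 and sh2 lines carried the same plasmid with shRNA-1 or shRNA-2 against SLP-2, the inner mitochondrial membrane protein that STOML2 encodes. All groups went through transfection and 3 weeks under Geneticin, and every group descends from 1 picked colony, so a difference between groups is also a difference between clones and the effects of silencing and of clone cannot be told apart. Each group had 3 arrays, 9 in all, and the labels do not say whether they came from separate cultures, so the spread behind each p-value is that between arrays of 1 clone and may be technical.

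Semaphorins are secreted or membrane-bound guidance proteins that steer axons, blood vessels and migrating epithelial cells. They bind plexins, whose cytoplasmic part switches off small GTPases of the R-Ras and Rap families, and the secreted class 3 semaphorins mostly need a neuropilin to do so. Neuropilins also bind vascular endothelial growth factors (VEGFs). CRMPs are cytosolic phosphoproteins that bind tubulin and were first described as carriers of the semaphorin 3A signal inside neurons.

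STOML2, the target of both hairpins, read 13.67 ± 0.03 (SD, n = 3) in control cells. The sh1 line read 8.32 ± 0.12 (SD, n = 3) and the sh2 line 7.73 ± 0.34 (SD, n = 3). All values are log2 signals as deposited, so 1 unit is 2-fold, and since probes differ in brightness the levels of different genes were not set against one another. The files used here give no detection calls, so 4.21, the lower quartile of mean signal over all rows, was taken as a mark for signals near background. All 8 ductal epithelial markers examined, among them KRT8, KRT18, KRT19, EPCAM and CDH1, lay above that mark in every group. Of these 8, sh1 had 4 raised and 1 lowered and sh2 had 3 raised and 2 lowered (limma, adjusted p under 0.05). That is 62.5% in each line, beside 18.8% (sh1) and 16.3% (sh2) of all rows, and 24.2% and 21.1% of rows above the mark. As differences from the control in sh1 and sh2, EPCAM changed by 4.94 and 0.74 (limma, adjusted p = 1.77e-09 and 0.00361). KRT19 changed by -1.69 and -0.57 (1.74e-05 and 0.0286) and CDH1 by 2.03 and -0.52 (4.02e-06 and 0.0419). KRT8 rose by 0.71 and 0.70 (0.00114 and 0.00152) and KRT18 by 1.21 and 1.27 (0.000138 and 0.000122). KRT7, MUC1 and CEACAM6 did not pass in either line. In the 3 groups, array medians lay between 6.57 and 6.65, and the SD of the 35 genes within a group had a median of 0.22 in the control, 0.21 in sh1 and 0.19 in sh2. The number of arrays limits the precision.

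Loss of NRP2 and DPYSL3 and a gain of SEMA3A, SEMA3C, SEMA4B and SEMA6B were seen in both hairpin lines. Against the control, 7 of the 35 genes rose and 7 fell in sh1, where 9.76% of all rows rose and 9% fell (limma over all rows, Benjamini-Hochberg adjusted p under 0.05). In sh2, 6 rose and 5 fell, where 8.33% of all rows rose and 7.98% fell. The same 4 genes rose in both lines (SEMA3A, SEMA3C, SEMA4B and SEMA6B) and the same 5 fell in both (NRP2, DPYSL2, DPYSL3, SEMA3E and SEMA3F), against 4.28% and 4.65% of all rows. The 35 genes were thus called in 40% of cases in sh1 and 31.4% in sh2, against 18.8% and 16.3% of all rows. Because earlier results were known when the set was chosen, these shares and those of its families below are descriptive only. The arrays of 16 genes did not overlap those of the control in sh1 and of 16 in sh2, against 34.5% and 32.5% of all rows. Rows near background are seldom called, and among the 16086 rows with a mean above 4.21 the shares were 24.2% and 21.1%. Of the 35 genes, 29 had a mean above that mark. The median difference of the 35 genes was 0.04 in sh1 and -0.08 in sh2 (0.02 and 0.02 over all rows), and the median size of the difference was 0.32 and 0.33 (0.22 and 0.21 over all rows). Both lines were compared with the same 3 control arrays, so the error of the control enters both differences. These are bulk samples, in which fewer cells of a type and less RNA per cell cannot be told apart.

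**Figure D1:**
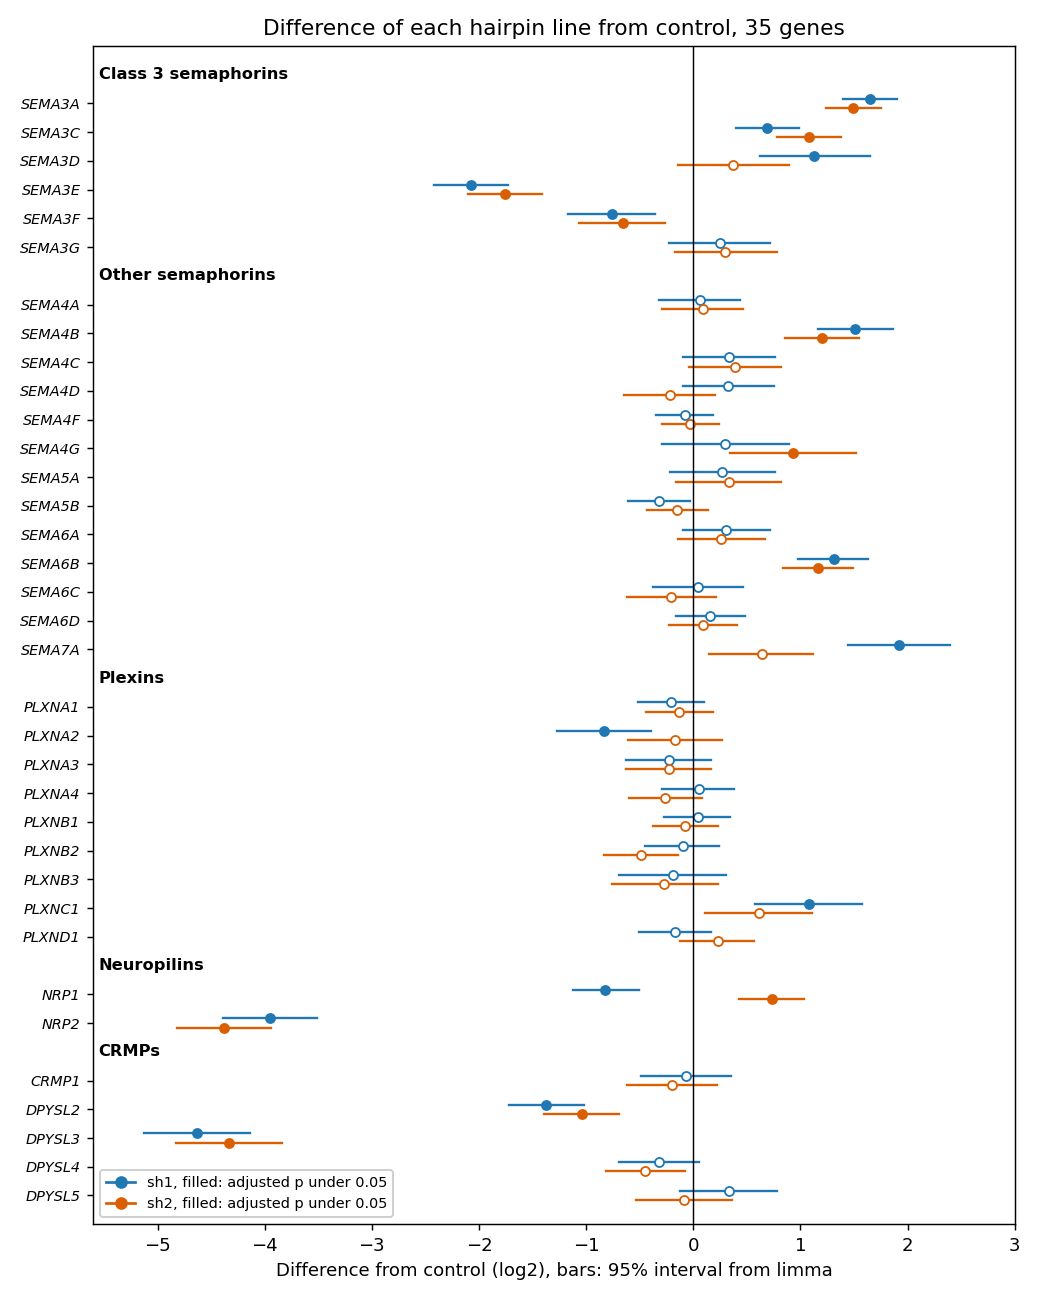
Difference of sh1 (blue) and sh2 (orange) from the control on the log2 scale for the 35 genes, grouped by family, with 95% intervals from limma (3 arrays per group) and filled points where the adjusted p is under 0.05. NRP2 and DPYSL3 lie near -4 in both lines, SEMA3A, SEMA3C, SEMA4B and SEMA6B lie to the right in both, and NRP1 lies on opposite sides.

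NRP2, DPYSL3 and SEMA3E fell and SEMA4B rose at least 2-fold in both lines, and each has a promoter entry. Their promoter sequences are given. They are the 250 bases before a start site, read 5′ to 3′ on the gene's strand from RefSeq on GRCh38.p14. The start site in use in these cells is not known. DPYSL3 has 2 starts in the table and both are shown, SEMA3E has 2 and SEMA4B has 3, of which the first listed is shown, and NRP2 has 1. SEMA3A, SEMA6B and DPYSL2 also changed at least 2-fold in both lines and are named only. Capitals mark the GC box GGGCGG, a motif of many promoters, on either strand.
NRP2, chr2:205682251-205682500, plus strand: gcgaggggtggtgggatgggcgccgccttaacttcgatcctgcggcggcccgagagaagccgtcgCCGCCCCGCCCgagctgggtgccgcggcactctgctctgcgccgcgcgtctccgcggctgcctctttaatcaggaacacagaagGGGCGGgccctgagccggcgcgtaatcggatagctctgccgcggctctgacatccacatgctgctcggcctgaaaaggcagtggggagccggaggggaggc
DPYSL3, start 1, chr5:147510069-147510318, minus strand: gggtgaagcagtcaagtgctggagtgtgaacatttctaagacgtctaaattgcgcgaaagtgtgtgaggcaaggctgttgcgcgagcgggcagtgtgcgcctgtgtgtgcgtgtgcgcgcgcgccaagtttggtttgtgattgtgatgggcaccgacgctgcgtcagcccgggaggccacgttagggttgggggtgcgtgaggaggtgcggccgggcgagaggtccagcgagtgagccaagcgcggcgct
DPYSL3, start 2, chr5:147453693-147453942, minus strand: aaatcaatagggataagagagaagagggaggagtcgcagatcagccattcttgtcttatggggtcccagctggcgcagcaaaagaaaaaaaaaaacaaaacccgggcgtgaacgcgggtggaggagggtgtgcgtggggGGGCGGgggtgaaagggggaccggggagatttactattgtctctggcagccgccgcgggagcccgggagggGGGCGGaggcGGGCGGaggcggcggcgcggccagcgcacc
SEMA3E, start 1, chr7:83649140-83649389, minus strand: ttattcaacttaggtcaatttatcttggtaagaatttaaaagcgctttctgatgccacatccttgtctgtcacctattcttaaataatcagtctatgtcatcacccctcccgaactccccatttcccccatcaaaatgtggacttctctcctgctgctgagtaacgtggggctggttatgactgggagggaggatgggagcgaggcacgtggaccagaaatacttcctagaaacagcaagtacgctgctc
SEMA4B, start 1, chr15:90201080-90201329, plus strand: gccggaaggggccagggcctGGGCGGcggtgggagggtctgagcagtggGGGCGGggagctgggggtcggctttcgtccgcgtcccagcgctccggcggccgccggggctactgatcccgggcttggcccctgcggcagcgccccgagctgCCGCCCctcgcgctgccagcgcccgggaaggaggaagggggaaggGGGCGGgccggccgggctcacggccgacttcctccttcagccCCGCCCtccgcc
The NRP2 window holds 3 GC boxes. The SEMA4B window shown holds 5, and the windows of its other starts hold 3 and 0. The first DPYSL3 start holds 0 and the second 3, and both SEMA3E starts hold 0. The G and C content of these windows was 70.0% for NRP2, 62.8% and 63.6% for DPYSL3, 46.4% for SEMA3E and 79.2% for SEMA4B. Over the first listed start of each of 27305 genes, 42.3% hold a GC box, and 21 of the 30 genes of the set that have an entry do. The windows of these 30 genes were also richer in G and C, with a median of 68.2% against 58.0% over all genes. The E-box CACCTG, bound by SNAI and ZEB repressors, and the AP-1 motif TGANTCA, both searched on either strand, were found in 0 of the 5 windows shown. Over all genes they occur in 17.5% and 6.6%, and over the 30 genes of the set in 5 and 1. In the NRP2 window, 2 of the 3 GC boxes share a base and both were counted. A match of letters is a description only.

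Among the secreted class 3 semaphorins, sh1 had 3 of 6 raised and 2 lowered, and sh2 had 2 raised and 2 lowered. That is 83.3% and 66.7% called, beside 18.8% and 16.3% of all rows, and 24.2% and 21.1% of rows above the background mark. In the control 5 of the 6 lay above that mark. SEMA3A, the classical repellent that signals through neuropilin-1 and class A plexins, read 11.66, 11.64 and 11.69 in the control arrays, 13.23, 13.37 and 13.34 in sh1 and 13.06, 13.21 and 13.20 in sh2. Every hairpin array lay above every control array. The rise was 1.65 ± 0.12 (SE) in sh1 and 1.49 ± 0.12 in sh2 (limma, adjusted p = 2.05e-06 and 4.65e-06), or 3.14-fold and 2.82-fold. SEMA3C, which can use either neuropilin, read 14.64, 14.57 and 14.77 in the control, 15.28, 15.36 and 15.42 in sh1 and 15.53, 15.93 and 15.76 in sh2. The groups did not overlap, and the rise was 0.69 ± 0.13 (SE) in sh1 and 1.08 ± 0.13 in sh2 (limma, adjusted p = 0.0036 and 0.00021).

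SEMA3E, which unlike its relatives binds plexin D1 without a neuropilin, went the other way. It read 10.97, 10.83 and 10.93 in the control, 8.86, 9.11 and 8.54 in sh1 and 9.27, 9.22 and 8.97 in sh2. The hairpin arrays lay well below the control arrays, and the change was -2.07 ± 0.16 (SE) in sh1 and -1.76 ± 0.16 in sh2 (limma, adjusted p = 3.74e-06 and 1.74e-05), or 4.21-fold and 3.38-fold lower. SEMA3F, a neuropilin-2 ligand, read 7.42, 6.95 and 7.08 in the control, 6.61, 5.99 and 6.56 in sh1 and 6.40, 6.63 and 6.43 in sh2. It fell in both lines, with differences of -0.76 and -0.66 (adjusted p = 0.0132 and 0.0304), with no overlap between either line and the control. The sh1 call was lost without control array 1 (-0.63, adjusted p = 0.0606). The sh2 call was lost on leaving out the first (-0.53, 0.125) or the third (-0.70, 0.0619) control array. It was also lost on leaving out the first (-0.62, 0.0836) or the third (-0.64, 0.0873) array of sh2 itself.

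SEMA3D read 3.62, 3.25 and 3.35 in the control, 5.15, 4.13 and 4.34 in sh1 and 3.91, 3.90 and 3.53 in sh2, so that 2 sh1 arrays lay above the background mark and all other arrays below it. The sh1 line differed by 1.13 ± 0.24 (SE; limma, adjusted p = 0.00548), whereas sh2 differed by 0.37 ± 0.24 (0.35). With every value under 4.21 raised to that mark, the sh1 difference was 0.35 (adjusted p = 0.419). SEMA3G, another neuropilin-2 ligand, averaged 5.01 in the control, 5.26 in sh1 and 5.32 in sh2 and was not called in either line.

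Among the 13 membrane-bound semaphorins, 3 rose and 0 fell in each line, or 23.1% called beside 18.8% (sh1) and 16.3% (sh2) of all rows. Of rows above the background mark, 24.2% and 21.1% were called. In each group 11 of the 13 lay above that mark, the called genes among them. SEMA4B, a transmembrane semaphorin, read 14.14, 13.59 and 14.11 in the control, 15.47, 15.49 and 15.41 in sh1 and 15.27, 15.16 and 15.02 in sh2. Control array 2 was the lowest, and all hairpin arrays lay above all control arrays. The rise was 1.51 ± 0.16 (SE) in sh1 and 1.20 ± 0.16 in sh2 (limma, adjusted p = 4.33e-05 and 0.000297). SEMA6B, a transmembrane ligand of class A plexins, read 6.49, 6.89 and 6.52 in the control, 7.98, 8.11 and 7.73 in sh1 and 7.81, 7.76 and 7.82 in sh2. It rose by 1.31 ± 0.15 (SE) and 1.16 ± 0.15 (adjusted p = 8.16e-05 and 0.000242), again without overlap.

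SEMA7A, the lipid-anchored semaphorin that binds plexin C1 and beta-1 integrins, separated the hairpin lines. It read 7.41, 6.82 and 7.11 in the control, 9.46, 8.79 and 8.85 in sh1 and 7.92, 7.41 and 7.92 in sh2. The sh1 arrays stood above all others, while the lowest sh2 array equalled the highest control array. The rise in sh1 was 1.92 ± 0.22 (SE), or 3.78-fold (limma, adjusted p = 8.61e-05). The difference in sh2 was 0.64 ± 0.22 (adjusted p = 0.0743) and passed without sh1 array 1 (0.64, adjusted p = 0.0458) or sh2 array 2 (0.81, 0.0442). Between the lines SEMA7A was lower in sh2, with a difference of -1.28 ± 0.22 (SE, adjusted p = 0.00264).

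SEMA4G read 4.39, 4.06 and 4.90 in the control, 4.79, 4.28 and 5.17 in sh1 and 5.03, 5.76 and 5.35 in sh2, where it rose by 0.93 ± 0.27 (SE; limma, adjusted p = 0.0351). The sh2 arrays lay above all control arrays and the sh1 arrays overlapped both. This call was lost on leaving out the first (0.90, adjusted p = 0.0998) or the second (0.74, 0.133) control array, the second (0.74, 0.129) or the third (0.94, 0.0812) array of sh2, and with values floored at the background mark (0.88, 0.122). The other 9 membrane-bound semaphorins (SEMA4A, SEMA4C, SEMA4D, SEMA4F, SEMA5A, SEMA5B, SEMA6A, SEMA6C and SEMA6D) were called in neither line, with differences from -0.32 (SEMA5B) to 0.33 (SEMA4C) in sh1 and from -0.22 (SEMA4D) to 0.39 (SEMA4C) in sh2. SEMA4A and SEMA5A lay under 4.21 in all 3 groups. SEMA4D, the ligand of plexin B1, averaged 5.53 in the control, 5.85 in sh1 and 5.31 in sh2.

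**Figure D2:**
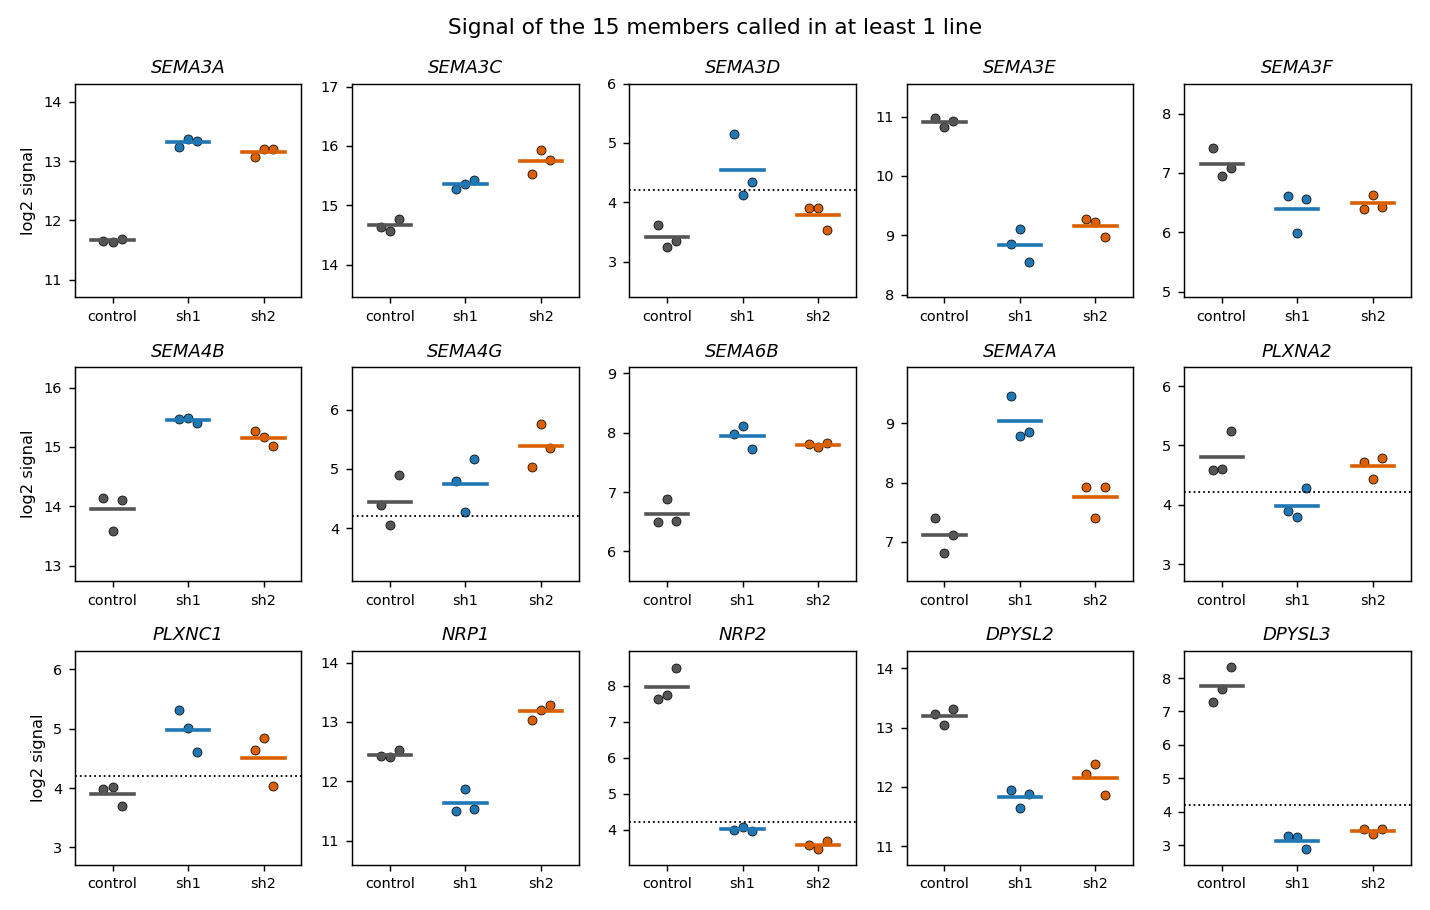
Log2 signal in each of the 9 arrays (points, 3 per group) with the group mean (line) for the 15 genes called in at least 1 hairpin line, each panel with its own range; the dotted line is 4.21, the lower quartile of row means. NRP2 and DPYSL3 drop from a mean near 8 in the control to below that line in both hairpin lines, and NRP1 falls in sh1 and rises in sh2.

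Of the 9 plexins, 1 rose and 1 fell in sh1, or 22.2% called beside 18.8% of all rows. In sh2 limma called 0, where 16.3% of all rows were called. The unadjusted limma p in sh2 was 0.0101 for PLXNB2 and 0.0202 for PLXNC1, a level at which the share of all rows was not computed. PLXNA2, a class A receptor used with neuropilins, read 4.59, 4.61 and 5.24 in the control, 3.89, 3.79 and 4.28 in sh1 and 4.72, 4.43 and 4.79 in sh2. Only sh1 lay apart from the control, and it fell there by 0.83 (limma, adjusted p = 0.0128), to a mean of 3.99 under the background mark. That call was lost without sh1 array 2 (-0.73, adjusted p = 0.053) and with floored values (-0.58, adjusted p = 0.0936). PLXNC1, the receptor of SEMA7A, read 3.99, 4.01 and 3.70 in the control, 5.31, 5.02 and 4.60 in sh1 and 4.64, 4.85 and 4.04 in sh2. It rose by 1.08 ± 0.23 (SE) in sh1 (adjusted p = 0.00574), a call lost with floored values (0.76, 0.0615). Its difference in sh2 was 0.61 ± 0.23 (adjusted p = 0.096), which passed without sh2 array 3 (0.84, 0.0233).

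For the remaining plexins the intervals show what the arrays could resolve. PLXNA1, the partner of neuropilin-1 in SEMA3A signalling, differed by -0.21 in sh1 (95% interval -0.52 to 0.10) and -0.13 in sh2 (-0.44 to 0.18). PLXND1, the receptor of SEMA3E, differed by -0.17 (-0.51 to 0.17) and 0.23 (-0.12 to 0.57). PLXNB2, a receptor of class 4 semaphorins, differed by -0.10 (-0.45 to 0.24) in sh1 and -0.49 (-0.83 to -0.14) in sh2 (limma, adjusted p = 0.0584). That sh2 value passed without control array 2 (-0.60, adjusted p = 0.0399) or sh2 array 1 (-0.59, 0.0389). PLXNA3 differed by -0.23 and -0.23 and PLXNB3 by -0.19 and -0.27, neither called. PLXNA4 and PLXNB1, the receptor of SEMA4D, lay at or under 4.21 in all 3 groups.

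The neuropilins carried a large change and a split between the lines. NRP2, the co-receptor of SEMA3F and of VEGF-C, read 7.62, 7.75 and 8.50 in the control, 4.0, 4.06 and 3.97 in sh1 and 3.57, 3.47 and 3.69 in sh2. Every hairpin array lay under the background mark and every control array far above it. The change was -3.95 ± 0.20 (SE) in sh1 and -4.38 ± 0.20 in sh2 (limma, adjusted p = 1.55e-07 and 5.75e-08). With values floored at 4.21 it was -3.74 in both lines (adjusted p = 0.000158 and 0.000157), a size that the floor limits.

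NRP1, the co-receptor of SEMA3A and of VEGF-A, read 12.42, 12.40 and 12.52 in the control, 11.49, 11.87 and 11.53 in sh1 and 13.04, 13.20 and 13.29 in sh2. No array of any group overlapped another group. The sh1 line had lost 0.82 (a difference of -0.82) and the sh2 line gained 0.73 (limma, adjusted p = 0.00149 and 0.00367). In sh1 its chromosomal neighbours were lower as well, with a median of -0.91. The difference between the lines, sh2 minus sh1, was 1.55 ± 0.14 (SE, adjusted p = 2.1e-05), or 2.92-fold. NRP1 and SEMA7A were the 2 genes of the set called between the lines, 1 higher and 1 lower in sh2, where 11.3% of all rows were called, 5.73% higher and 5.57% lower. For 14 of the 35 genes the arrays of the lines did not overlap, against 27.1% of all rows. PLXNA2 (0.66, adjusted p = 0.0572), SEMA3D (-0.76, 0.0634) and SEMA3C (0.39, 0.0965) came next and did not pass. PLXNA2 passed between the lines without control array 3 (0.66, 0.0271) or sh1 array 3 (0.81, 0.0408), SEMA3D without sh1 array 2 (-0.96, 0.0296) and SEMA3C without sh2 array 1 (0.49, 0.0499).

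Of the 5 CRMPs, 2 (40%) fell in each line and 0 rose, where 9% (sh1) and 7.98% (sh2) of all rows fell. DPYSL3 (CRMP4), which binds actin as well as tubulin, read 7.28, 7.68 and 8.33 in the control, 3.28, 3.23 and 2.88 in sh1 and 3.47, 3.34 and 3.48 in sh2. As with NRP2, control array 3 was the highest and all hairpin arrays lay under the background mark. The change was -4.63 ± 0.23 (SE) in sh1 and -4.33 ± 0.23 in sh2 (limma, adjusted p = 1.18e-07 and 1.72e-07), and -3.55 in both lines with floored values (adjusted p = 0.000266 and 0.000299). DPYSL2 (CRMP2), the tubulin-binding founder of the family, read 13.22, 13.05 and 13.32 in the control, 11.95, 11.65 and 11.88 in sh1 and 12.22, 12.38 and 11.87 in sh2. Its signal was thus reduced but far from background, with differences of -1.37 ± 0.16 (SE) for sh1 and -1.04 ± 0.16 for sh2 (limma, adjusted p = 8.86e-05 and 0.000831). CRMP1 differed by -0.07 and -0.20, DPYSL4 by -0.32 and -0.45 and DPYSL5 by 0.33 and -0.09, and none of them was called.

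Markers of other cell types were read beside these losses because neuropilins and CRMPs are also expressed by fibroblasts and neurons. Of 7 fibroblast markers measured, COL1A1 and COL1A2 fell in both lines (differences of -3.19 and -3.48 for COL1A1), THY1 rose in sh1, and LUM lay under 4.21 in all groups. DCN, PDGFRA and PDGFRB were called in neither line. The median difference of the 7 markers was -0.17 in sh1 and 0.04 in sh2. The log2 of the summed signal of the 7 markers was 11.21 to 11.44 in the control, 9.97 to 10.28 in sh1 and 9.72 to 10 in sh2. COL1A1 and COL1A2, with control means of 9.84 and 10.36, carried the control sum. Of 6 neuronal markers, SYT1 and SNAP25 rose in sh2, and in sh1 the lowest adjusted p was 0.116. ELAVL4 and STMN2 lay under 4.21 in all groups, while RBFOX3 (5.67, 5.55 and 5.48 in control, sh1 and sh2) and NEFL (4.54, 4.35 and 4.32) lay above it in all groups. The neuronal sum was 8.79 to 9.13 in the control, 8.43 to 8.63 in sh1 and 12.16 to 12.46 in sh2. SYT1, with group means of 8.51, 8.10 and 12.28, carried that sum, and the median difference of the 6 markers in sh2 was -0.02. Of 4 leukocyte markers, PTPRC fell in both lines and CD68 in sh1. In sh2 CD68 differed by 0.41 from the control (limma, adjusted p = 0.0733) and by 0.89 from sh1 (0.00154). The leukocyte sum was 12.39 to 12.45 in the control, 11.74 to 12.13 in sh1 and 12.68 to 12.99 in sh2. Against the control, the 5 endothelial markers had limma adjusted p-values of 0.269 and above. Whether these marker changes are linked to those of NRP2, DPYSL2 and DPYSL3 was not tested.

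Some of the genes lie in chromosome stretches whose other genes shifted together. For each gene the 40 nearest expressed genes (20 on each side, RefSeq order) were read in the same comparison. NRP1 lies on chromosome 10, and its neighbours had a median difference of -0.91 in sh1, with 34 of 40 lower, against -0.07 in sh2. With the neighbours' shift subtracted in every array, NRP1 stood at 0.07 for sh1 (limma, adjusted p = 0.748) and at 0.75 for sh2 (0.00205), and the difference between the lines was 0.67 (adjusted p = 0.00499). SEMA4B and SEMA7A lie on chromosome 15, where the neighbours had a median of 0.74 and 0.71 in sh1 and 0.29 and 0.14 in sh2. After subtraction SEMA4B differed by 0.74 and 0.88 (adjusted p = 0.00364 and 0.00134). SEMA7A then stood at 1.21 for sh1 (adjusted p = 0.00124) and 0.44 for sh2 (0.175), and between the lines by -0.77 (0.0281).

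DPYSL3 lies on chromosome 5 among neighbours with a median of -0.42 in sh1 and -0.61 in sh2, small beside its own change, which was -4.20 and -3.80 after subtraction (limma, adjusted p = 5.49e-08 and 1.2e-07). The neighbours of NRP2 on chromosome 2 had a median of 0.17 and 0.16. For PLXNC1 on chromosome 12 the neighbours stood at 0.37 in sh1, and its difference after subtraction was 0.71 (adjusted p = 0.0521), which no longer passed. SEMA3A, SEMA3C, SEMA3D and SEMA3E all lie on chromosome 7, where neighbour medians ran from -0.02 to 0.08 in sh1 and from -0.22 to -0.01 in sh2. These 4 genes kept their calls in each line after subtraction (SEMA3D in sh1). The neighbours of SEMA6B on chromosome 19 were lower, at -0.35 and -0.32, and SEMA6B after subtraction stood at 1.62 and 1.48 (adjusted p = 1.5e-05 and 4.09e-05).

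**Figure D3:**
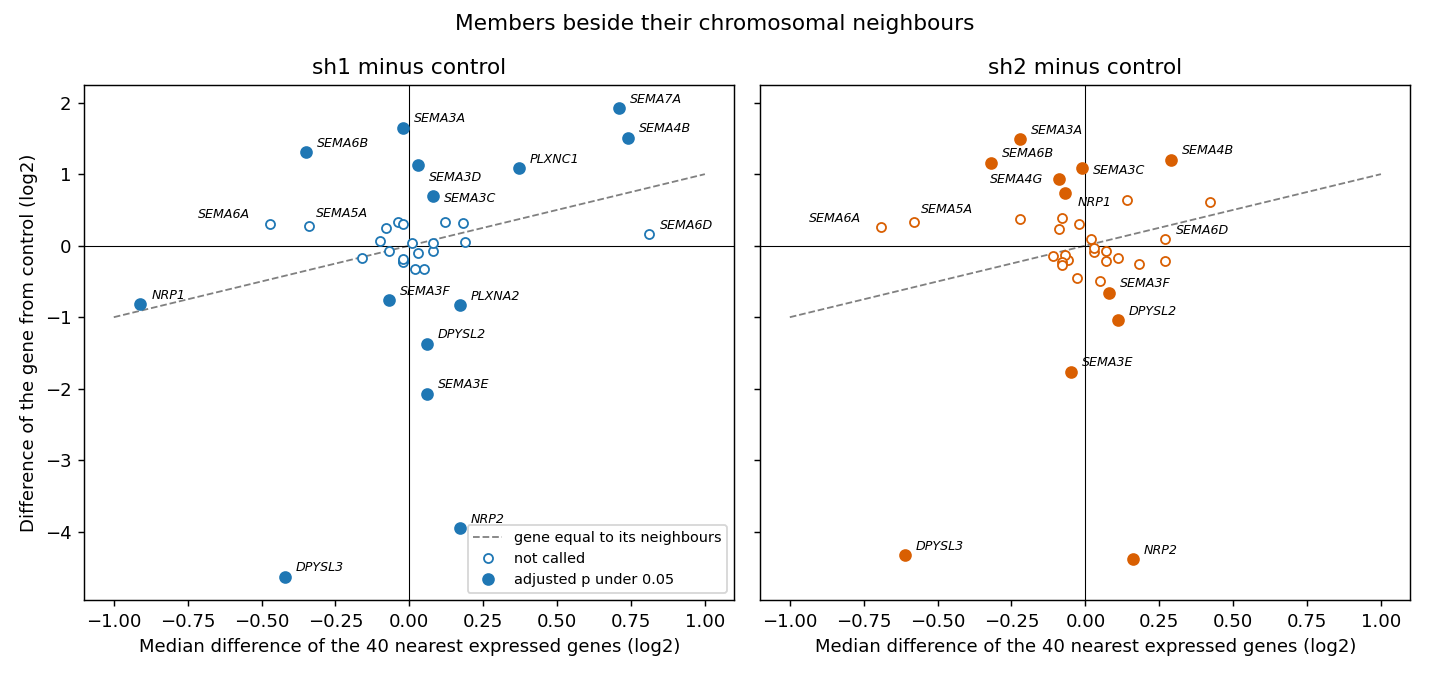
Difference of each of the 35 genes from the control (vertical, log2) against the median difference of its 40 nearest expressed neighbours (horizontal, log2), for sh1 (left) and sh2 (right); filled points have an adjusted p under 0.05, and called genes and 3 others are named. NRP1 lies close to the dashed line of equality in sh1 (-0.82 beside -0.91) and above it in sh2 (0.73 beside -0.07), whereas NRP2 and DPYSL3 lie far below it in both.

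Partners of the pathway outside the set were read from lists of co-receptors, VEGF ligands, effectors and processing proteases. The lists too were chosen with earlier results of these data known, so their shares are descriptive only. Among 16 measured co-receptors of 18 listed, 2 fell in each line and 0 rose, or 12.5% called beside 18.8% (sh1) and 16.3% (sh2) of all rows. PTK7, a pseudokinase that acts beside plexins, stood at -1.16 for sh1 and -1.95 for sh2 (limma, adjusted p = 0.00052 and 1.24e-05), and after subtraction of its neighbours by -0.41 (0.0859) and -1.31 (9.5e-05). The other co-receptor called in sh1 was ITGB1, a receptor of SEMA7A, at -1.23 (adjusted p = 2.32e-05, against 0.08 and 0.72 in sh2), which shares its neighbourhood with NRP1 and stood at -0.32 in sh1 after subtraction (0.106). The other one called in sh2 was L1CAM, a partner of neuropilin-1, at -1.42 (adjusted p = 0.000221) and -0.23 in sh1 (0.449). MET, which plexin B1 can engage, differed by 0.23 and 0.18 and was not called.

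The VEGF ligands of the neuropilins moved in opposite directions. Of 5 measured, 3 were called in sh1 and 2 in sh2, or 60% and 40% beside 18.8% and 16.3% of all rows. VEGFC, a ligand of NRP2, rose by 0.99 in sh1 and 0.87 in sh2 (limma, adjusted p = 0.00334 and 0.00878). PGF, placental growth factor, rose in sh1 (0.86, adjusted p = 0.00639), with 0.59 for sh2 (0.0516). VEGFA, a ligand of NRP1, fell by 0.50 and by 0.42 (adjusted p = 0.0109 and 0.0303), among neighbours whose medians were -0.84 and -0.81, and after subtraction it differed by 0.35 and 0.37 (0.0592 and 0.0576). VEGFB and VEGFD were not called in either line. Of 4 processing proteases measured of 5 listed, 2 rose in sh1 and 1 in sh2, or 50% and 25% called, and 0 fell. ADAM17 differed by -0.04 and 0.13 and PCSK5 by -0.08 and 0.12, neither called. ADAM10, which sheds membrane proteins, rose by 0.81 and 0.51 (limma, adjusted p = 0.00143 and 0.0243). After subtraction ADAM10 differed by 0.23 and 0.33 (0.274 and 0.127). FURIN, which cleaves class 3 semaphorins, rose by 0.70 in sh1 (adjusted p = 0.0194), with 0.26 for sh2 (0.413). Its neighbours stood at 0.87 and 0.49, and after subtraction it differed by -0.19 and -0.22 (0.488 and 0.436).

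Among 34 measured effectors of 40 listed, sh1 had 5 raised and 6 lowered and sh2 had 5 raised and 5 lowered, a share of 32.4% and 29.4% against 18.8% and 16.3% of all rows. In the control 32 of the 34 lay above the background mark, and of all rows above it 24.2% and 21.1% were called. MICAL2, of the family of actin-oxidising enzymes that act below plexins, fell by 0.75 and by 0.77 (limma, adjusted p = 0.0045 and 0.0048). MRAS, a GTPase of the R-Ras family, fell by 0.90 and by 1.24 (adjusted p = 0.00159 and 0.000205), and the exchange factor TRIO fell too (-0.69 and -1.28, 0.00376 and 5.91e-05). The kinase FER fell by 1.46 and by 0.80 (6.5e-05 and 0.00514). RAP1B, a GTPase that plexins inactivate, rose by 0.76 and 0.43 (0.00115 and 0.0347), and CYFIP1, an actin regulator reported to bind CRMP2, by 0.75 and 0.54 (0.00109 and 0.0106). After subtraction of the neighbours, MICAL2 and MRAS passed in both lines, TRIO in sh2 (-0.73, adjusted p = 0.00312), FER in sh1 (-0.92, 0.00117), and RAP1B and CYFIP1 in neither (0.35 and -0.03, and 0.01 and 0.28). RRAS, chosen after its values were seen because its directions matched those of NRP1, stood at -0.67 for sh1 and 0.66 for sh2 (limma, adjusted p = 0.0261 and 0.0314), a difference of 1.32 between them (0.000636). After subtraction it stood at -0.71 (0.0145) and 0.52 (0.0706), so that the sh2 call was lost. Between the lines, 4 of the 34 effectors were higher in sh2 than in sh1 (RRAS, TIAM1, FER and ROCK2) and 3 were lower (RND3, FYN and TRIO). RND3 went opposite to RRAS, with 1.16 in sh1 (limma, adjusted p = 0.0041), -0.39 in sh2 (0.31) and -1.55 between them (0.000979). FYN differed by 0.73 in sh1 (0.00831), -0.05 in sh2 (0.893) and -0.78 between them (0.00889). The effectors called between the lines were 20.6% of those measured, beside 11.3% of all rows.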

How the data were processed

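Total RNA (100 ng per sample) was amplified, fragmented and biotin-labelled for 1-colour whole-transcript arrays, per the labels' protocols. The deposited values, from 2.03 to 18.57 with near-identical distributions, were taken as log2 signals. The authors summarised and normalized them with Transcriptome Analysis Console, per the submitters' processing notes, with version and settings not given in the sources used here. They were used as deposited.

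Gene symbols came from the platform annotation (17709 rows with 1 symbol) and gene order from RefSeq on GRCh38.p14. One limma 3.58.1 model (R 4.3.3) over all 21448 rows and 9 arrays compared each hairpin line with the control and sh2 with sh1, with Benjamini-Hochberg adjustment over all rows. A call is an adjusted p under 0.05. Neighbour subtraction removed, in each array, the median deviation of the 40 nearest genes above the median signal, and the adjustment then ran over the 17684 rows with neighbours. All members could be named, with arrays listed for those called against the control. From the partner lists, genes called the same way in both lines were named, with MET, ITGB1 and VEGFA. Where a list had few calls in 1 line, those were named too. RRAS and the other effectors called between the lines were named after their values were seen. The remaining measured VEGF ligands and proteases were named as not called. Members and lists were chosen with earlier results of these data known. The pipeline was tested on simulated data.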

Additional observations from a re-analysis of the deposited data

Results flagged for a closer look

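NRP1 and SEMA7A are listed because the hairpin lines differed in a direct test. NRP1 was higher in sh2 than in sh1 by 1.55 ± 0.14 (SE; limma, adjusted p = 2.1e-05), in 3 of 3 sh2 arrays against every sh1 array. Its neighbours on chromosome 10 differed between the lines by a median of 0.90. SEMA7A differed by -1.28 ± 0.22 (SE, adjusted p = 0.00264), with all 3 sh2 arrays below all 3 sh1 arrays, beside a neighbour median of -0.48. After subtraction of the neighbours, NRP1 differed between the lines by 0.67 (limma, adjusted p = 0.00499) and SEMA7A by -0.77 (0.0281). The cause of the shifts in these chromosome stretches was not tested.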

How the results depend on the processing

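Each group is 1 clone, detection calls were not used here, and signals under 4.21 have little room to fall, which limits the sizes of the NRP2 and DPYSL3 losses. NRP2, DPYSL2, DPYSL3, SEMA3A, SEMA3C, SEMA3E, SEMA4B and SEMA6B kept direction and call in both lines under every alternative that recomputed single genes. Leaving out 1 array in turn gave 7 to 7 higher and 6 to 7 lower genes in sh1, 5 to 7 and 4 to 6 in sh2, and 1 to 2 and 1 to 2 between the lines. In sh1, 4 genes fell at least 2-fold. Between the lines, 2 were higher with only the 2 groups, 2 without rows under the lower quartile, 3 with neighbour correction, and 3 higher and 2 lower with a trended robust prior. With a replicate block by array number, 2 were higher and 2 lower between the lines, and 8 were higher in sh2. Deviations of same-numbered arrays correlated at -0.0358 to 0.18, with 2 of 9 pairs over 0.1, and in 7 of 18 cases an array matched its own number best, so numbers were not taken as pairs. Neighbour correction turned NRP1 in sh1 to 0.07 (adjusted p = 0.748) and SEMA6D in sh1 from 0.16 to -0.67 (0.00664). Centring on array medians changed no call of the 35 genes.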

Other observations

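SEMA6A and SEMA5A, guidance ligands not called in either line, lie on chromosome 5 among genes whose median was lower in both lines. The neighbours of SEMA6A had a median of -0.47 in sh1 and -0.69 in sh2, while SEMA6A itself differed by 0.31 and 0.26, and after subtraction by 0.76 (limma, adjusted p = 0.0142) and 0.99 (0.00352). For SEMA5A the neighbours stood at -0.34 and -0.58, its own difference was 0.27 and 0.33, and after subtraction it was 0.56 (0.124) and 0.88 (0.0257). SEMA6D on chromosome 15 lay in sh1 among neighbours at 0.81, of which 1 of 40 was lower, and its own difference was 0.16. SEMA5A lay under the lower quartile of the rows in all groups, and SEMA6A and SEMA6D averaged 4.78 and 4.44 in the control, close to it. The subtraction removes the neighbours' shift whatever the signal of the gene itself. In sh2, PLXNA4, also under the lower quartile, and PLXNB2 stood at -0.48 (0.0421) and -0.50 (0.0447) after subtraction.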
